A study of Mus musculus with 77 samples.

Results

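The livers described here came from 6 Aco1-/- mice, 3 killed at Zeitgeber time (ZT) 5 and 3 at ZT12, out of 24 mice in the whole series. They were chosen by label, as every knockout liver of the Aco1 line at each time, and are numbered 1 to 3 within a time as in the labels. Each liver gave a library of ribosome-protected fragments (RPF) and a library of total RNA from one lysate, so that the 6 livers account for 12 of 48 libraries and for 21 of 77 sequencing runs. ZT counts hours from lights on in a cycle of 12 h light and 12 h dark, which places ZT5 in the light phase and ZT12 at the change from light to dark. The animals were adult C57BL/6J males of 12 to 24 weeks, fed normal chow without restriction and entrained for at least 8 days. They carried the Aco1tm1.1Mwh allele on both chromosomes in every cell of the body, so the liver's own loss of the gene and that of other organs cannot be told apart. The 6 Aco1+/+ livers of the same line, 3 at each time, served to test whether a change over time differed between the genotypes.

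Aco1 encodes iron regulatory protein 1 (IRP1), which doubles as the cytosolic aconitase. IRP1 and its relative IRP2, from Ireb2, bind iron-responsive elements (IREs) in mRNAs when iron is scarce. A bound IRE in the 5′ untranslated region blocks translation, as in the ferritin mRNAs, whereas bound IREs in the 3′ untranslated region stabilise the mRNA of the transferrin receptor Tfrc. In the liver the circadian clock and the feeding rhythm also move the mRNA of many metabolic genes over the day. Ribosome profiling sequences the mRNA pieces that ribosomes cover, so RPF counts over a coding sequence (CDS) reflect both how much mRNA there is and how densely it is translated. The ratio of RPF to RNA, called translation efficiency (TE), separates the latter from the former.

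Transcripts of Aco1 remain in these mice, so footprints and RNA were both used to check the labels. Aco1 (chr4:40143265-40199009, build GRCm38.p6) had RNA levels of 114.3, 157.1 and 167 CPM at ZT5 and 215, 191 and 168 CPM at ZT12 in the Aco1-/- mice, where CPM is a count relative to 1000000 CDS counts of the library after upper-quartile scaling. The Aco1+/+ livers ranged from 239 to 358 CPM, above every knockout. Footprints were reduced further, with 74.8, 81.2 and 83.4 CPM at ZT5 and 123.2, 97.8 and 109.5 CPM at ZT12 in Aco1-/- livers and 347.1 to 591 CPM in Aco1+/+ livers. Log2 TE of Aco1 lay between -1.0 and -0.61 in the knockouts and between 0.54 and 0.96 in the wild types, without overlap. Within the knockouts the remaining Aco1 footprints rose to ZT12 (0.47 ± 0.15, adjusted p = 0.0481), a call that was not past the threshold without mouse 1 or 2 of ZT5 or mouse 1, 2 or 3 of ZT12 (adjusted p up to 0.173).

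The knockout libraries held 852293 to 3993492 CDS counts for RNA and 3958828 to 9265977 for RPF, and RNA was the shallower library in 5 of the 6 mice, all but mouse 2 of ZT5. The shallowest RNA library belonged to mouse 1 of ZT12. The CDS held 93.3, 94.0 and 95.0% of the RPF counts at ZT5 and 96.1, 96.0 and 95.1% at ZT12, and 48.3% of the RNA counts of mouse 1 of ZT5 beside 54.9 to 59.9% in the other mice. The part of these shares in the changes was not tested. Of the marker lists, that of hepatocytes had the highest sum in every library, at 105783 to 137109 CPM at ZT5 and 128692 to 144843 CPM at ZT12 in RNA. In RPF the same 8 markers summed to 178118 to 221518 CPM at ZT5 and 228022 to 240049 CPM at ZT12, which did not overlap. The 7 markers of stellate cells and fibroblasts also did not overlap in RPF, with sums of 516.8 to 586.8 CPM at ZT5 and 599.2 to 656.3 CPM at ZT12, and none of them passed the test. The sums of the Kupffer cell, endothelial, cholangiocyte, lymphocyte, neutrophil, red cell and exocrine pancreas markers overlapped between the times in both measures. Ptprc and Trac of the lymphocytes and Ly6g of the neutrophils were listed at 0 in every knockout library, and 6 of the 61 markers were not analysed here. Of the single markers, Tat and Cyp2e1 of the hepatocytes rose in RPF. The hepatocyte marker Fgb and the cholangiocyte marker Spp1 fell in RNA and RPF, and the endothelial markers Clec4g and Egfl7 fell in RPF. The part of these marker levels in the footprint changes was not tested. In whole liver, fewer cells of a type and less RNA per cell cannot be told apart.

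Of 10696 genes tested in Aco1-/- liver, 551 changed in RNA between ZT5 and ZT12 at an adjusted p under 0.05. RNA rose for 259 genes (2.42%) and fell for 292 (2.73%), and 239 of the 551 changed over 2-fold. With TMM scaling the balance turned to 323 rises and 249 falls, and with DESeq2 to 266 and 206. In footprints 1293 genes changed, of which 568 (5.31%) rose, 725 (6.78%) fell and 468 changed over 2-fold. DESeq2 gave 675 rises and 647 falls in footprints, and TMM scaling 627 and 653. TE changed for 16 genes, 4 (0.0374%) upward and 12 (0.112%) downward. The median log2 change over all genes was -0.05 in RNA, -0.05 in RPF and 0.03 in TE. Adjusted p-values throughout are from edgeR's quasi-likelihood test with Benjamini-Hochberg adjustment over all genes tested, and fold changes are log2 of ZT12 over ZT5 ± SE with 3 mice at each time.

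The counts depended on single mice. Without mouse 1 of ZT5 the RNA calls fell to 330 and the RPF calls to 531, and without mouse 3 of ZT12 the RNA calls fell to 296. The RPF count was 835 without mouse 1 of ZT12, 808 without mouse 2 of ZT12 and 849 without mouse 2 of ZT5. TE calls numbered 3 without mouse 1 of ZT5, 8 without mouse 1 of ZT12, 10 without mouse 3 of ZT5 and 74 without mouse 3 of ZT12. With RPF counts thinned to the RNA depth of the same mouse, an alternative chosen after seeing the data, 748 genes changed in RPF (401 of them down), of which 694 were among the 1293.

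**Figure D1:**
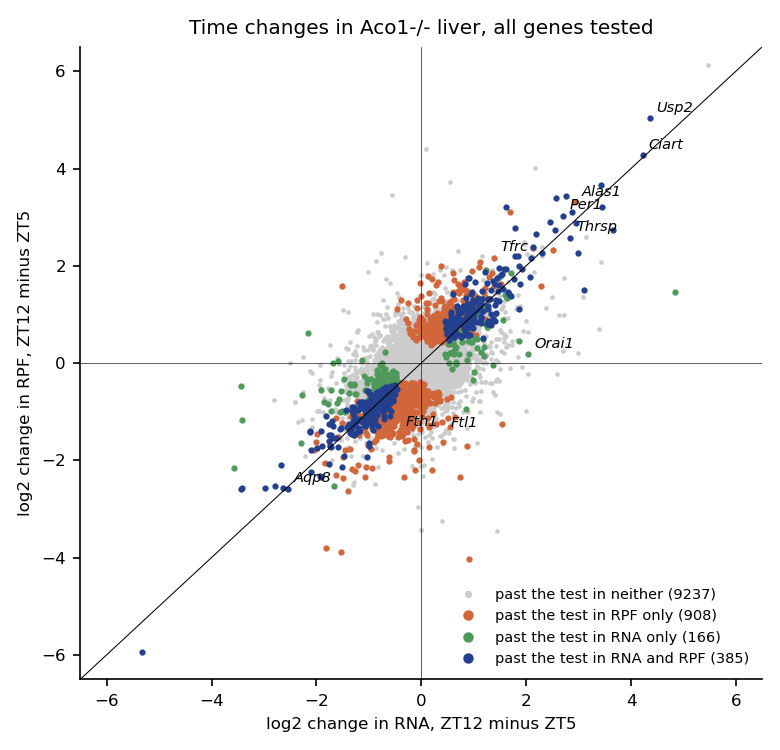
Log2 change from ZT5 to ZT12 in RNA (x axis) and in RPF (y axis) of each gene tested in Aco1-/- liver, 1 point a gene, coloured by the measure in which it passed the test, with a line of equal change; 1 gene lies outside the axes. The 385 genes past the test in both measures moved in the same direction in both, while 908 passed in RPF only and 166 in RNA only.

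RNA and footprint changes had the same sign for 539 of the 551 genes called in RNA. The 385 genes called in both measures made up 69.9% of the RNA calls and 29.8% of the RPF calls, and each moved one way in both. Of the 908 genes called in RPF alone, 833 moved in the same direction in RNA and 378 had an unadjusted p under 0.05 there. Across all genes, which are not independent replicates, Pearson's r was 0.61 between the RNA and RPF changes. For the RNA and TE changes r was -0.40, and these share the RNA counts.

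The gene with the smallest adjusted p for a rise was Usp2 (chr9:44067021-44095627), a deubiquitinase whose gene is a direct output of the clock. Its RNA was 0.84, 3.96 and 3.10 CPM at ZT5 and 60.02, 62.3 and 60.7 CPM at ZT12. The groups stood far apart, and the change was 4.37 ± 0.26 (adjusted p = 3.35e-14). Footprints were 1.79, 3.54 and 6.67 CPM at ZT5 and 121.9, 131.8 and 106.2 CPM at ZT12 (5.04 ± 0.31, adjusted p = 1.93e-07). The log2 TE of Usp2 was between -0.16 and 1.08 in the 6 mice and did not pass the test.

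Nampt, Nmrk1, Coq10b, Pdxk and Por were also among the leading RNA increases. Nampt, the rate-limiting enzyme of NAD salvage, had RNA levels of 61.4, 50.3 and 71.1 CPM at ZT5 and 158.7, 211 and 172 CPM at ZT12, with no overlap between the times. Its change was 1.58 ± 0.16 (adjusted p = 2.22e-08) in RNA and 1.94 ± 0.19 (adjusted p = 7.37e-06) in RPF. Nmrk1, a kinase that phosphorylates nicotinamide riboside on its way to NAD, changed by 2.13 ± 0.25 (adjusted p = 4.95e-07) in RNA. Coq10b, a coenzyme Q binding protein of mitochondria, changed by 1.88 ± 0.22 (adjusted p = 4.95e-07), and Pdxk, which phosphorylates vitamin B6, by 1.43 ± 0.18 (adjusted p = 1.07e-06). Por, the electron donor of microsomal cytochromes P450, had RNA levels of 92.03, 158.4 and 113.2 CPM at ZT5 and 322, 475 and 523 CPM at ZT12 (1.86 ± 0.18, adjusted p = 2.38e-07). The ZT5 and ZT12 values of Nmrk1, Coq10b, Pdxk and Por did not overlap in RNA.

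Pfkfb3, Il6ra, Fkbp5 and Nrep were further leading RNA increases. Pfkfb3 makes the allosteric activator of glycolysis, and its RNA was 2.52, 6.26 and 6.21 CPM at ZT5 and 27.5, 38.08 and 26.4 CPM at ZT12 (2.55 ± 0.27, adjusted p = 7.58e-08). Il6ra, the interleukin 6 receptor, changed by 1.76 ± 0.21 (adjusted p = 8.29e-07), and Fkbp5, a glucocorticoid-induced chaperone of the steroid receptors, by 2.31 ± 0.26 (adjusted p = 6.97e-06). The neuronal regeneration related protein Nrep changed by 2.99 ± 0.40 (adjusted p = 1.15e-05), and by 2.35 without mouse 3 of ZT12. In footprints the leading increases further held Noct, a circadian phosphatase of NADPH (2.2 ± 0.24, adjusted p = 2.9e-05), Slc37a4, the glucose-6-phosphate transporter (1.3 ± 0.14, adjusted p = 1.54e-05), Herpud1 of ER-associated degradation (1.61 ± 0.19, adjusted p = 7.26e-05) and St3gal5, the ganglioside GM3 synthase (1.63 ± 0.20, adjusted p = 8.78e-05).

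The RNA decrease with the smallest adjusted p was that of Crot, which conjugates peroxisomal fatty acids to carnitine. It had RNA levels of 1217, 1411 and 1291 CPM at ZT5 and 414, 445 and 331 CPM at ZT12, without overlap. Crot fell in both RNA (-1.72 ± 0.14, adjusted p = 3.15e-10) and RPF (-1.48 ± 0.14, adjusted p = 7.52e-06). The water channel Aqp8 of the canalicular membrane had RNA levels of 144.97, 83.3 and 85.8 CPM at ZT5 and 13.2, 19.04 and 18.5 CPM at ZT12 (-2.54 ± 0.23, adjusted p = 1.76e-07), again without overlap. Plin2, a coat protein of lipid droplets, changed by -1.34 ± 0.16 (adjusted p = 8.29e-07), and Insig2, a brake on sterol-regulated transcription, by -2.11 ± 0.22 (adjusted p = 2.31e-06). Cbs, the first enzyme of transsulfuration, changed by -1.2 ± 0.14 (adjusted p = 3.25e-07), and Abcb11, the bile salt export pump, by -1.03 ± 0.14 (adjusted p = 5.5e-06).

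Further RNA decreases were seen in Coq8a of coenzyme Q synthesis (-1.54 ± 0.17, adjusted p = 1.85e-07), the actin regulator Eps8l2 (-1.91 ± 0.18, adjusted p = 8.2e-09), the tight junction protein Cldn1 (-1.98 ± 0.26, adjusted p = 5.5e-06), the mitochondrial unfoldase Clpx (-1.72 ± 0.21, adjusted p = 1.33e-05), the kinase Prkd3 (-1.18 ± 0.15, adjusted p = 4e-06) and the ubiquitin ligase Rnf125 (-1.55 ± 0.21, adjusted p = 7.84e-06). Footprint decreases were led by Spon2, an extracellular matrix protein, with 19.3, 13.6 and 13.6 CPM at ZT5 and 2.87, 2.95 and 1.99 CPM at ZT12 (-2.58 ± 0.23, adjusted p = 4.49e-06). The thymidine phosphorylase Tymp (-2.34 ± 0.23, adjusted p = 7.52e-06) and the bile acid enzyme Hsd3b7 (-1.92 ± 0.21, adjusted p = 3.34e-05) followed. Asap2, Anp32a, Dhrs3, Amt, Hmgcs1 and Ubxn1 changed by log2 values between -2.58 and -1.14 in RPF, with adjusted p from 3.68e-05 to 8.78e-05.

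The clock's own genes were followed as lists of activators, repressors and output factors. Their counts stand beside the shares of all genes that rose and fell, 2.42% and 2.73% in RNA and 5.31% and 6.78% in RPF. In the molecular clock ARNTL and CLOCK, or NPAS2, switch on E-box genes, among them the Per and Cry repressors, and the REV-ERB and ROR receptors act in opposite directions on Arntl. Of 10 core repressors 5 rose in RNA and 0 fell, and 6 rose and 1 fell in RPF, with median log2 changes of 0.82 and 0.99. Without mouse 3 of ZT12, 3 of the 10 rose in RNA. Of 5 activators 1 rose and 3 fell in RNA (median -0.76), and 1 rose and 2 fell in RPF (median -0.57). Without mouse 2 of ZT12 or mouse 1 of ZT5, 1 activator rose and 1 fell in RNA. Of 6 output factors 3 rose in RNA and 4 in RPF, with medians of 1.23 and 1.32, and 0 fell.

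Among the repressors Per1 had RNA levels of 0.84, 9.39 and 10.2 CPM at ZT5 and 42.7, 35.5 and 66.2 CPM at ZT12 (2.71 ± 0.46, adjusted p = 0.00712). With the knockout livers fitted alone the Per1 call was lost (adjusted p = 0.0992). Per2 had RNA levels of 0.84, 4.38 and 9.88 CPM at ZT5 and 36.6, 42.7 and 30.5 CPM at ZT12 (2.77 ± 0.41, adjusted p = 0.00089), and Per3 rose by 2.57 (adjusted p = 0.0186), a call that was not past the threshold without mouse 1 of ZT5 or mouse 3 of ZT12 (adjusted p up to 0.0833). The footprints of all 3 Per genes were higher in every ZT12 liver, with log2 changes of 3.03, 3.44 and 3.4. Ciart, an inhibitor of ARNTL and CLOCK, had RPF levels of 0.138, 0.295 and 1.67 CPM at ZT5 and 11.4, 13.5 and 9.76 CPM at ZT12 (4.27 ± 0.49, adjusted p = 4.29e-05). These ZT5 values, like the 0.84 CPM of Per1 and Per2 in RNA, rest on few counts, so the sizes of these changes are uncertain. In RPF Cry1 changed by 0.99 ± 0.26 (adjusted p = 0.0182), not past the threshold without mouse 1 of ZT12 (adjusted p = 0.0719), and Cry2 by 1.0 ± 0.21 (adjusted p = 0.00568). Both Cry calls were lost with first sequencing runs alone (adjusted p up to 0.104). Leaving out mouse 3 of ZT5 gave RPF changes of 5.79 for Ciart, 4.29 for Per2 and 4.19 for Per3 and RNA changes of 3.55 for Per2 and 3.3 for Per3. Without mouse 1 of ZT5 the Ciart change was 3.5.

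The REV-ERB receptors are repressors of Arntl. Nr1d1, which encodes REV-ERBα, had RPF levels of 50.8, 72.6 and 129.6 CPM at ZT5 and 40.7, 20.5 and 25.8 CPM at ZT12 and fell (-1.52 ± 0.34, adjusted p = 0.013). That call was lost with the knockout livers fitted alone or RPF thinned to the RNA depth (adjusted p up to 0.0667). The RPF levels of its paralog Nr1d2 were 11.6, 12.7 and 21.4 CPM at ZT5 and 22.1, 20.5 and 31.8 CPM at ZT12, which overlapped and did not pass the test. Bhlhe40 and Bhlhe41, which encode repressors of E-box genes, did not pass in either measure.

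Arntl, whose protein pairs with CLOCK, had RNA levels of 15.1, 8.56 and 3.10 CPM at ZT5 and 1.02, 1.15 and 1.63 CPM at ZT12 (-2.63 ± 0.50, adjusted p = 0.00088). The ZT12 levels of Arntl rest on few counts, so the size of the fall is uncertain. Its RPF change was -2.58 ± 0.50 (adjusted p = 0.00355), and -1.94 without mouse 1 of ZT5. Clock fell in RNA (-0.76 ± 0.19, adjusted p = 0.0105), and the call was not past the threshold without mouse 1 of ZT5 or mouse 2 of ZT12 (adjusted p up to 0.0727). Npas2 had 17 RNA counts over the ZT5 livers and 0 over the ZT12 livers, which makes it at least 4.30-fold lower when 0 is set to a floor of 3 counts over the group. In RPF it had 18 counts against 0, at least 8.00-fold lower by the same floor, which covers counting error only. Rora, a receptor that activates Arntl, did not pass.

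Of the output factors, Tef, a PAR bZIP activator of D-box genes, had RNA levels of 8.82, 17.5 and 26.5 CPM at ZT5 and 38.7, 45.9 and 50.1 CPM at ZT12 (1.33 ± 0.25, adjusted p = 0.00117). With RNA counted over all columns the Tef call was lost (adjusted p = 0.0736). Wee1, the cell cycle kinase under clock control, had RNA levels of 2.52, 0.835 and 5.08 CPM at ZT5 and 21.4, 18.8 and 19.9 CPM at ZT12 (2.87 ± 0.53, adjusted p = 0.00536), and the change was 3.75 without mouse 3 of ZT5. Hlf rose in RPF (0.92 ± 0.19, adjusted p = 0.00475). Dbp, the best known D-box activator, had RNA levels of 4.20, 10.9 and 43.7 CPM at ZT5 and 43.7, 45.9 and 42.2 CPM at ZT12 and did not pass, with mouse 3 of ZT5 as high as the ZT12 mice. The same mouse was the highest of the ZT5 livers for Bhlhe40 (118.8 CPM beside 42.02 and 52.2) and Nr1d2 (61.2 CPM beside 19.3 and 35.1). Nfil3, the repressor that opposes Dbp on D-boxes, overlapped between the times.

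No clock gene passed the test in TE. There 0 of 5 activators, 0 of 10 repressors and 0 of 6 output factors passed the test, with medians of 0.19, 0.06 and 0.10 beside 0.03 over all genes.

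**Figure D2:**
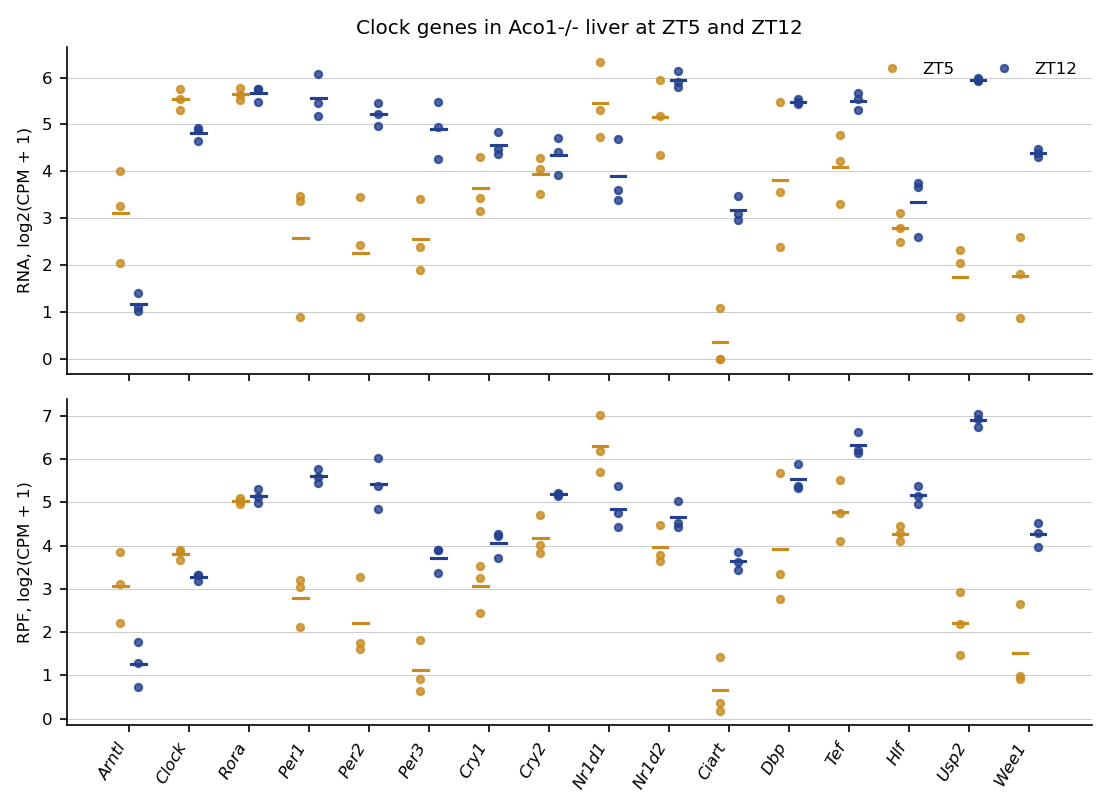
RNA (top) and RPF (bottom) levels, as log2(CPM + 1), of 16 clock and clock output genes in the 3 Aco1-/- livers at ZT5 (ochre) and the 3 at ZT12 (blue), 1 point a mouse and a line at the mean. The Per genes, Ciart, Usp2 and Wee1 are higher at ZT12 in every mouse, Arntl is lower, and 1 ZT5 mouse reaches the ZT12 level of Dbp.

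The promoters of these genes were read for clock elements, because many of them moved together. Windows of RefSeq on build GRCm38.p6, from 250 bases before to 50 after each start, were searched on both strands for the E-box CACGTG, the D-box TTATGTAA or TTACGTAA, and the ROR element TAGGTCA or TGGGTCA. Of 32851 windows 7.15% held an E-box, 1.06% a D-box and 6.45% a ROR element, and windows were found for 8510 of the tested genes. Per2, Bhlhe40 and Wee1 had no window, and Usp2, Nampt and Por had no window with any of the 3. The stretches below are those of the leading RNA increases and the clock genes, written 5′ to 3′ on the strand of the gene with the element in capitals, and 1 pair of the 3 stretches of Ciart overlaps.
Per1, E-box, chr11:69098772-69098799, plus strand: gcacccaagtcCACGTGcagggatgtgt
Cry1, E-box, chr10:85185098-85185125, minus strand: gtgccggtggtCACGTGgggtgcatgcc
Ciart, E-box, chr3:95882256-95882283, minus strand: gtgcagaaccgCACGTGtctgggagggg
Ciart, E-box, chr3:95882270-95882297, minus strand: gcagggggaggCACGTGcagaaccgcac
Ciart, E-box, chr3:95882328-95882355, minus strand: gcatctagagtCACGTGttgccggtaag
Bhlhe41, E-box, chr6:145865557-145865584, minus strand: ggtacgttccgCACGTGagctgggtgct
Tef, E-box, chr15:81802535-81802562, plus strand: tgctgtggctcCACGTGctgcagctggc
Tef, E-box, chr15:81811265-81811292, plus strand: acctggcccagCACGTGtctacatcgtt
Pfkfb3, E-box, chr2:11502127-11502154, minus strand: acccttctctcCACGTGaaagggggctg
Il6ra, E-box, chr3:89913204-89913231, minus strand: ctgctgtgtgtCACGTGcatgtgggaag
Fkbp5, E-box, chr17:28486302-28486329, minus strand: caagggccagaCACGTGggcagcggtga
Pdxk, E-box, chr10:78465112-78465139, minus strand: ggatgtgaggcCACGTGatggagcacag
Coq10b, E-box, chr1:55052681-55052708, plus strand: gcggcactggaCACGTGcgtcagcctag
Coq10b, D-box, chr1:55052597-55052626, plus strand: cgtcacgaagaTTACATAAgtggcagactc
Per3, D-box, chr4:151044805-151044834, minus strand: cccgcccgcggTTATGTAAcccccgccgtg
Per3, D-box, chr4:151044852-151044881, minus strand: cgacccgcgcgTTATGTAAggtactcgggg
Arntl, ROR element, chr7:113207530-113207558, plus strand: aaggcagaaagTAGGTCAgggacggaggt
Nfil3, ROR element, chr13:52981034-52981062, minus strand: gcgctcggaacTGACCTActaacacacat

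Genes that fell held such elements as well. The leading decreases Cbs, Aqp8 and Plin2 each had an E-box, and Insig2, Hsd3b7, Abcb11 and Plin2 a ROR element, 4 of which are shown here for comparison with the rising genes.
Aqp8, E-box, chr7:123462208-123462235, plus strand: atcattgatccCACGTGgcccttgccct
Cbs, E-box, chr17:31637418-31637445, minus strand: ctcacgacaaaCACGTGttagacggcag
Insig2, ROR element, chr1:121328206-121328234, minus strand: tgcttggtcttTGACCCAagtctctcgag
Hsd3b7, ROR element, chr7:127800586-127800614, plus strand: ccttcctggaaTGGGTCAggagggaggag

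Counted by gene, with any window of a gene, 17.3% of the genes whose RNA rose had an E-box, beside 12.6% of those that fell and 12.0% of all genes tested that had a window. For D-boxes the shares were 4.06%, 1.35% and 0.881%, and for ROR elements 5.08%, 7.66% and 6.35%. These shares are descriptions of the letters in the windows and were not tested.

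TE changes in Aco1-/- liver were few. The increases described here were Rpl3 and Rpl6 of the large ribosomal subunit. The log2 TE of Rpl3 was -1.98, -1.35 and -1.18 at ZT5 and 0.02, 0.22 and 0.07 at ZT12 (1.63 ± 0.28, adjusted p = 0.00448), without overlap, and was not past the threshold without mouse 1 of ZT5 (adjusted p = 0.116).

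The TE decreases included Gstp1, Gpx1 and Hspe1. The glutathione transferase Gstp1 had a log2 TE of 2.2, 1.99 and 1.87 at ZT5 and 1.3, 1.07 and 1.58 at ZT12 (-0.7 ± 0.12, adjusted p = 0.00448), and was not past the threshold without mouse 1 of ZT5 or mouse 2 of ZT12 (adjusted p up to 0.116). The selenoprotein Gpx1, which reduces peroxides with glutathione, changed by -0.67 ± 0.13 (adjusted p = 0.0137), and was not past the threshold without mouse 1 of ZT5 or mouse 1 of ZT12 (adjusted p up to 0.471). Hspe1, the cochaperonin of mitochondrial HSP60, changed by -1.6 ± 0.31 (adjusted p = 0.0166), and was not past the threshold without mouse 1, 2 or 3 of ZT5 or mouse 1 or 2 of ZT12 (adjusted p up to 0.151). The remaining decreases were in the cytoplasmic actin Actg1 (-2.63), the calcium channel Orai1 (-1.87), the histone Hist1h2bc (-2.07), the gamma-secretase subunit Psenen (-2.8), the complex I subunit Ndufv3 (-0.85), the RNA-binding protein Hnrnpa0 (-1.02), the mitochondrial mt-Nd4l (-1.84) and 2 major urinary protein genes, Mup12 and Mup8, with adjusted p up to 0.0456. Each of the 7 named in that sentence outside the Mup family lost its call without at least 2 of the 6 mice, with adjusted p from 0.116 to 0.602 at most, and mouse 1 of ZT5 was among these mice for all 7. Mup8 lost its call without mouse 2 of ZT12 (adjusted p = 0.308), and its RNA rested on 7 counts over the ZT5 livers and 10 over the ZT12 livers. Reads of the Mup family, of histone and actin copies, and of mt-Nd4l, whose frame overlaps that of mt-Nd4, may be split among near-identical or overlapping genes, so these values are uncertain. With libraries not paired by mouse, or with limma on the TE of each mouse, 0 genes changed in TE.

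Footprints on 7 mitochondrially encoded mRNAs rose to ZT12 in Aco1-/- liver. These 13 mRNAs encode subunits of the respiratory chain and ATP synthase and are translated by ribosomes inside the organelle. Of 12 tested, 7 rose in RPF and 0 fell (median log2 0.79), with 4 of the other 5 below 0, and 5 rose in RNA and 0 fell (median 0.50). Among all genes in these livers 5.31% rose and 6.78% fell in RPF, and 2.42% and 2.73% in RNA. In Aco1+/+ livers 0 of the 12 changed in RPF (median -0.33), beside 3.46% of all genes rising and 3.18% falling there. In RNA 2 of the 12 rose in those livers (median 0.11), beside 3.29% of all genes. In Aco1-/- RNA 9 of 12 changed without mouse 2 of ZT12 and 3 without mouse 3 of ZT12.

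The clearest case was mt-Nd5, a proton-pumping subunit of complex I. Its RPF level was 331, 385 and 303 CPM at ZT5 and 832, 843 and 885 CPM at ZT12 (1.33 ± 0.15, adjusted p = 2.9e-05). All ZT12 mice stood above all ZT5 mice, whereas the change in Aco1+/+ livers was 0.05. RNA of mt-Nd5 was 4032, 3717 and 3892 CPM at ZT5 and 7333, 6289 and 7296 CPM at ZT12 (0.85 ± 0.13, adjusted p = 5.58e-05). The other complex I subunits mt-Nd4 (1.41 ± 0.18, adjusted p = 9.79e-05) and mt-Nd2 (1.09 ± 0.20, adjusted p = 0.00185) rose in RPF as well. mt-Co1, the catalytic subunit of cytochrome oxidase, had RPF levels of 902, 908 and 654 CPM at ZT5 and 1284, 1378 and 1849 CPM at ZT12 (0.87 ± 0.17, adjusted p = 0.00335). mt-Nd1, mt-Cytb and mt-Atp8 had smaller log2 changes of 0.79, 0.70 and 0.78, and mt-Atp8 overlaps mt-Atp6, so its reads cannot be assigned with certainty. The call of mt-Nd1 was lost without any 1 of the knockout mice other than mouse 1 of ZT5, with adjusted p up to 0.0857.

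Summed over the list, mitochondrial RPF was 3426, 3470.5 and 2419 CPM at ZT5 and 5282, 5273 and 6334 CPM at ZT12, a ratio of 1.81 (exact two-sided permutation test, p = 0.1, the smallest that 3 against 3 can give). In Aco1+/+ livers the sums were 4242, 3522 and 2986 CPM at ZT5 and 3120.0, 3086 and 2474 CPM at ZT12, a ratio of 0.807 (exact permutation p = 0.3). The RNA sums of the knockouts had a ratio of 1.52 (exact permutation p = 0.1), and those of the wild types 1.11 (p = 0.5, exact permutation test). The time effect itself was set against that in Aco1+/+ livers by an interaction term. In RPF the difference did not reach the threshold for any gene, with adjusted p of 0.059 for mt-Nd5, 0.0735 for mt-Nd2 and 0.098 for mt-Nd4.

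In TE the difference was past the threshold for mt-Co1 and mt-Nd5, which are both of the genes with a positive difference (0.0187% of those tested). Log2 TE of mt-Co1 was -3.19, -2.95 and -3.4 at ZT5 and -3.07, -2.79 and -2.44 at ZT12 in the knockouts. Its change was 0.41 in Aco1-/- and -0.69 in Aco1+/+ livers, a difference of 1.1 ± 0.18 (adjusted p = 0.00462). For mt-Nd5 the changes were 0.49 and -0.39, a difference of 0.89 ± 0.17 (adjusted p = 0.0179). Neither knockout TE change passed the test on its own. Of the 12 mitochondrial mRNAs tested, 0 rose and 1 fell in TE in each genotype. Mup12 was the 1 gene with a negative difference (0.00935%). All 3 calls were lost with libraries not paired by mouse, with limma, and with RNA counted over all columns (adjusted p = 0.0562 for each in the last), and that of mt-Nd5 also with a minimum of 50 counts in 6 or more libraries (adjusted p = 0.087). The mt-Co1 call was also lost without mouse 3 of ZT12 (adjusted p = 0.0599) or mouse 1 of ZT5 (adjusted p = 0.0652) of the Aco1+/+ livers. The mt-Nd5 call was lost without mouse 1 or 3 of ZT5 in Aco1-/- livers, mouse 2 or 3 of ZT12 in Aco1+/+ livers, or any ZT5 mouse of Aco1+/+ livers, with adjusted p up to 0.208.

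**Figure D3:**
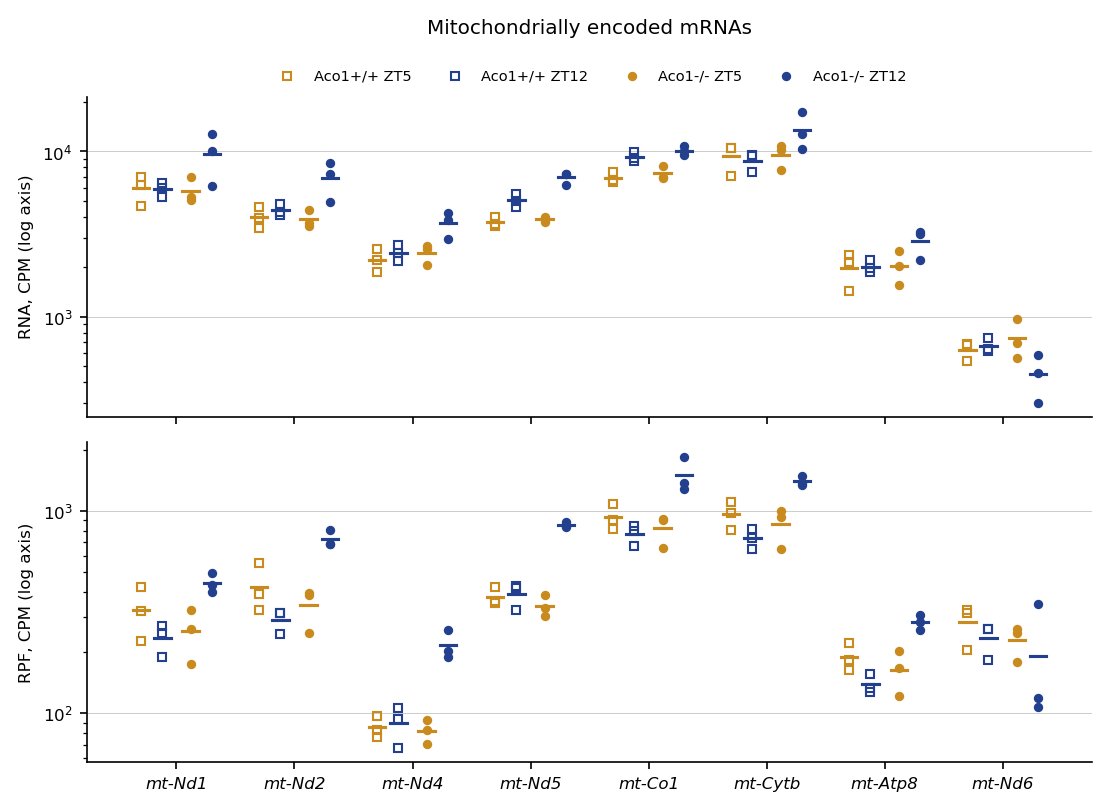
RNA (top) and RPF (bottom) levels in CPM, on log axes, of 8 mitochondrially encoded mRNAs in Aco1+/+ livers (open squares) and Aco1-/- livers (filled circles) at ZT5 (ochre) and ZT12 (blue), 1 point a mouse and a line at the mean. In RPF the 3 Aco1-/- livers at ZT12 lie above the 3 at ZT5 for mt-Nd5, mt-Nd4 and mt-Nd2, whereas the Aco1+/+ livers of the 2 times overlap for mt-Nd5 and mt-Nd4 and lie lower at ZT12 for mt-Nd2.

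Cytosolic ribosomal protein mRNAs carry a 5′ TOP motif, through which growth signals set their translation. Of 77 tested, 13 rose and 0 fell in RPF (median log2 0.30), beside 5.31% and 6.78% of all genes, and 1 rose and 1 fell in RNA (median -0.06), beside 2.42% and 2.73%. The RPF count was 6 without mouse 1 of ZT5 and 8 without mouse 2 of ZT12. Rps6, a small-subunit protein and the target of the S6 kinases, had 11.2, 14.8 and 11.7 CPM at ZT5 and 28.9, 41.95 and 31.1 CPM at ZT12 (1.45 ± 0.24, adjusted p = 0.000919). Rpl3 changed by 1.65 ± 0.29 (adjusted p = 0.00178) and Rpl6 by 1.37 ± 0.24 (adjusted p = 0.00141). In TE 2 of 77 rose, beside 0.0374% of all genes. The list median of TE was 0.44 beside 0.20 in Aco1+/+ livers, where 0 passed in RPF.

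The single mice overlapped over the list as a whole. Summed RPF of the ribosomal proteins was 2009, 2949.9 and 1967 CPM at ZT5 and 2444, 2933 and 3049 CPM at ZT12 (p = 0.3, exact permutation test), and the median log2 TE was -0.99, -0.25 and -0.76 against -0.46, -0.19 and 0.07 (p = 0.2, exact permutation test). No ribosomal protein gene passed the test of a difference between genotypes. Most have processed pseudogenes, which may take a share of their reads. Of 15 other TOP mRNAs, chiefly translation factors, 1 rose and 0 fell in RPF (median 0.28) and 0 passed in RNA (median -0.11) or TE (median 0.57). Of 16 ribosome biogenesis factors 2 rose and 0 fell in RNA (median 0.28), and 5 rose and 1 fell in RPF (median 0.52). In Aco1+/+ livers 6 of them rose in RNA and 8 in RPF, and none passed the test of a difference between the genotypes. Nolc1, a nucleolar phosphoprotein, changed by 1.08 ± 0.17 (adjusted p = 0.000499), Rrp12 of pre-ribosome export by 1.67 ± 0.22 (adjusted p = 0.000178) and Nop56 of the box C/D particles by 1.09 ± 0.24 (adjusted p = 0.00686).

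IRE mRNAs were examined because IRP2 remains in these livers. Ftl1 (chr7:45457944-45459886), the ferritin light chain, had RNA levels of 266, 209 and 206 CPM at ZT5 and 276, 258 and 383 CPM at ZT12. Its footprints were 138.9, 98.6 and 110.1 CPM at ZT5 and 13.97, 67.6 and 48.2 CPM at ZT12, lower in every ZT12 mouse, as were 15.1% of all genes in RPF, and the change did not pass (-1.44 ± 0.54, adjusted p = 0.125). The log2 TE of Ftl1 was -0.94, -1.08 and -0.9 at ZT5 and -4.29, -1.93 and -2.98 at ZT12, also lower without overlap, as for 4.71% of all genes, and did not pass (-1.98 ± 0.64, adjusted p = 0.489). In Aco1+/+ livers the TE change was -1.61, and the difference between genotypes had an adjusted p of 0.993.

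Fth1, the ferritin heavy chain that oxidises iron for storage, had RPF levels of 876, 997 and 743 CPM at ZT5 and 161, 343 and 476 CPM at ZT12 and fell (-1.42 ± 0.37, adjusted p = 0.0321), with a change of -2.0 in Aco1+/+ livers (adjusted p = 0.0105). The call in the knockouts was not past the threshold without mouse 1, 2 or 3 of ZT5 or mouse 2 of ZT12 (adjusted p up to 0.119). Its RNA levels were 1054, 789 and 843 CPM at ZT5 and 666, 796 and 541 CPM at ZT12 and its TE changed by -1.09 ± 0.53 (adjusted p = 0.685), neither past the threshold. Reads of both ferritins can be shared with processed pseudogenes.

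Epas1, which encodes HIF-2α and bears a 5′ IRE, moved the other way, with 157.7, 163 and 259 CPM at ZT5 and 338, 394 and 352 CPM at ZT12 in RPF (0.9 ± 0.19, adjusted p = 0.00488). Its RNA changed by 0.64 ± 0.16 (adjusted p = 0.0105), not past the threshold without mouse 1 or 2 of ZT5 or mouse 3 of ZT12 (adjusted p up to 0.109). Of the 6 mRNAs with a 5′ IRE, 2 rose in RNA (median 0.25), 1 rose and 1 fell in RPF (median -0.28), and 0 passed in TE (median -0.32 beside -0.57 in Aco1+/+ livers). For all genes the shares that rose and fell were 2.42% and 2.73% in RNA and 5.31% and 6.78% in RPF. The iron exporter Slc40a1 and the erythroid enzyme Alas2 did not pass in RNA or RPF.

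Tfrc (chr16:32608896-32632794), the receptor for transferrin-bound iron, had RNA levels of 8.82, 7.30 and 9.88 CPM at ZT5 and 57.99, 16.2 and 10.1 CPM at ZT12. The ZT12 mouse 1 stood far above the others, and the RNA change did not pass (1.38 ± 0.60, adjusted p = 0.248). Without that mouse the RNA change was 0.61. Footprints were 8.15, 7.97 and 6.95 CPM at ZT5 and 66.7, 19.4 and 16.98 CPM at ZT12, without overlap, and rose (2.17 ± 0.53, adjusted p = 0.0273). That call was not past the threshold without mouse 1, 2 or 3 of ZT5 (adjusted p up to 0.128), and the change in Aco1+/+ livers was 1.85 (adjusted p = 0.0529). The other 3′ IRE mRNA, Slc11a2 of the iron transporter DMT1, had RPF levels of 16.7, 14.2 and 19.7 CPM at ZT5 and 40.9, 26.9 and 21.3 CPM at ZT12 (0.82 ± 0.22, adjusted p = 0.0191), not past the threshold without mouse 1 or 2 of ZT5 or mouse 1 of ZT12 (adjusted p up to 0.128). Both 3′ IRE mRNAs rose in RPF (median 1.5), beside 5.31% of all genes. In RNA 0 of 2 passed (median 0.99), and in TE 0 of 2 (median 0.33).

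The same ZT12 mouse 1 had the lowest footprints of both ferritins in the set, with 13.97 CPM of Ftl1 beside 67.6 and 48.2 CPM in the other ZT12 mice. Without it the RPF change of Tfrc was 1.23 (adjusted p = 0.0067) and that of Fth1 -1.09 (adjusted p = 0.0279).

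**Figure D4:**
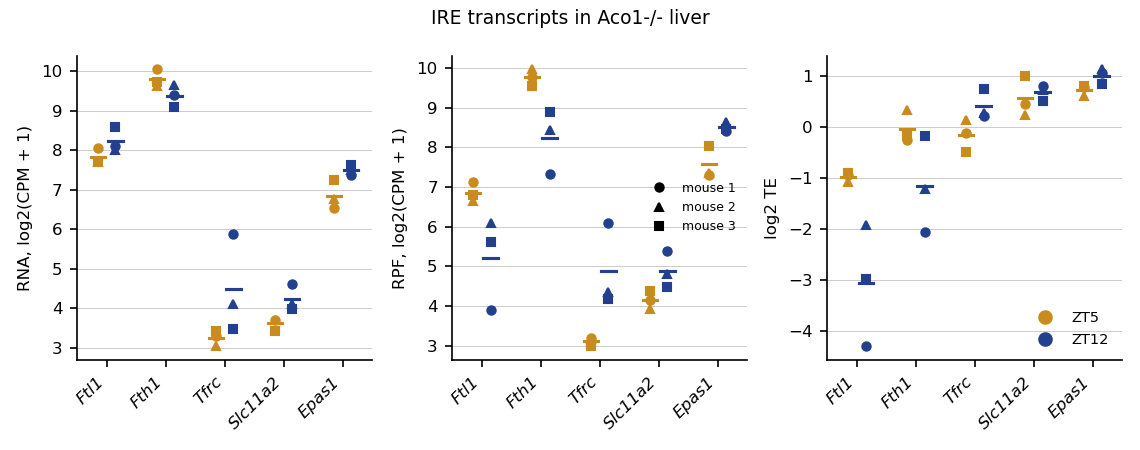
RNA and RPF levels, as log2(CPM + 1), and log2 TE of 5 IRE mRNAs in the 6 Aco1-/- livers, with ochre for ZT5, blue for ZT12, a marker shape for the mouse within its group and a line at the mean. Ftl1 and Fth1 are lower in RPF at ZT12 and Tfrc, Slc11a2 and Epas1 higher, and mouse 1 of ZT12 is the lowest for Ftl1 and Fth1 and the highest for Tfrc in RPF.

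The iron sensing list, which holds Aco1 itself, gave 1 rise and 1 fall among 15 tested in RNA (median -0.27) and 3 rises and 2 falls in RPF (median -0.28), with 0 in TE (median 0.06). The remaining Aco1 footprints were 1 of the 3 rises. Over all genes tested 2.42% rose and 2.73% fell in RNA, and 5.31% and 6.78% in RPF. Without mouse 1 of ZT5, 0 of the 15 passed in RPF. Ireb2, which encodes IRP2, had RPF levels of 55.8, 68.2 and 71.8 CPM at ZT5 and 74.4, 66.9 and 79.8 CPM at ZT12, with overlap. Its RNA levels were 127.3, 132.5 and 150.1 CPM at ZT5 and 124.1, 118.00 and 94.7 CPM at ZT12, lower in every ZT12 mouse, as were 12.6% of all genes in RNA, and neither change passed. Hamp, the hormone hepcidin that closes the iron exporter, had RPF levels of 4039.6, 4018 and 1725 CPM at ZT5 and 1153, 1279 and 2056 CPM at ZT12. The groups overlapped, and the fall (-1.12 ± 0.31, adjusted p = 0.0351) was not past the threshold without mouse 1 or 2 of ZT5 or mouse 1 or 2 of ZT12 (adjusted p up to 0.162). Its reads may be shared with the near-identical Hamp2. Slc39a14, an importer of non-transferrin iron, changed by 0.8 ± 0.18 (adjusted p = 0.00841) in RPF, not past the threshold without mouse 1 of ZT5 (adjusted p = 0.0571).

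Heme synthesis was represented by Alas1, its rate-limiting enzyme in liver. Alas1 RNA was 122.7, 242 and 66.9 CPM at ZT5 and 573, 1889.7 and 847 CPM at ZT12, higher without overlap, as for 8.5% of all genes, and did not pass (2.93 ± 0.71, adjusted p = 0.0551). Its RPF was 97.5, 419.6 and 116.8 CPM at ZT5 and 1228, 3569 and 1447 CPM at ZT12 (3.31 ± 0.80, adjusted p = 0.0323). The RPF call was not past the threshold without mouse 1 or 3 of ZT5 or mouse 2 of ZT12 (adjusted p up to 0.125). Mouse 2 was the highest of its group at both times, and the RPF change was 2.67 without that of ZT12 and 4.28 without that of ZT5. Of 13 heme genes 0 passed in RNA (median 0.08), 1 rose in RPF (median 0.10), beside 5.31% of all genes, and 0 passed in TE (median 0.02).

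The metabolic lists are given beside the shares of all genes that rose and fell, 2.42% and 2.73% in RNA and 5.31% and 6.78% in RPF. In glucose and glycogen metabolism 2 of 16 rose and 1 fell in RNA (median 0.34), and 3 rose and 1 fell in RPF (median 0.48). Gys2, the liver glycogen synthase, had RNA levels of 111.4, 122.9 and 195 CPM at ZT5 and 349, 439 and 441 CPM at ZT12 (1.52 ± 0.21, adjusted p = 0.000134). The glycogen-targeting subunits of protein phosphatase 1 went opposite ways, Ppp1r3b up (1.14 ± 0.17, adjusted p = 3.18e-05) and Ppp1r3c down (-1.29 ± 0.19, adjusted p = 2.74e-05).

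Among 16 lipogenic genes tested 3 rose and 1 fell in each of RNA (median 0.53) and RPF (median 0.67). Thrsp, a lipogenic nuclear protein, had RNA levels of 97.9, 60.3 and 149.8 CPM at ZT5 and 757, 853 and 583 CPM at ZT12 (2.84 ± 0.46, adjusted p = 0.00962), and Insig2 was the gene that fell. Without mouse 3 of ZT12 in RNA, or mouse 2 of ZT12 in RPF, 1 lipogenic gene rose and 1 fell. In cholesterol synthesis and uptake 1 rose and 1 fell of 24 in RNA (median -0.16), and 1 rose and 2 fell in RPF (median -0.07). Hmgcs1, an early enzyme of cholesterol synthesis, fell in RPF (-1.35 ± 0.17, adjusted p = 8.78e-05). Of 20 genes of fatty acid oxidation and ketogenesis 4 rose and 1 fell in RNA (median 0.16), and 6 rose and 1 fell in RPF (median 0.14). The rises depended on single mice: 0 rose in either measure without mouse 3 of ZT12 or mouse 1 of ZT5, whereas Plin2 fell in each case.

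Bile acid genes split as well, with 2 of 15 rising and 3 falling in RNA (median -0.04) and 3 and 3 in RPF (median 0.13). Without mouse 2 of ZT12, 1 rose and 1 fell in RPF, and without mouse 3 of ZT5, 0 rose and 3 fell in RNA. Hsd3b7, an early enzyme of bile acid synthesis, had RNA levels of 20.6, 18.2 and 16.1 CPM at ZT5 and 8.14, 8.37 and 4.08 CPM at ZT12 (-1.48 ± 0.28, adjusted p = 0.000856). The RNA call of Hsd3b7 was lost with first sequencing runs alone (adjusted p = 0.16). Slc10a1, the sodium-dependent bile acid importer, changed by 0.89 ± 0.16 (adjusted p = 0.00222) in RPF. In the P450 system 4 of 18 rose in RNA (median 0.32) and 7 in RPF (median 0.44), and 0 fell. Without mouse 3 of ZT12, 1 of the 18 rose in RNA. Por was joined in RPF by Cyp2a5 (1.43 ± 0.26, adjusted p = 0.00329) and Cyp2a4 (2.74 ± 0.54, adjusted p = 0.00322), near-identical coumarin and steroid hydroxylases whose reads cannot be cleanly divided. With first sequencing runs alone the Cyp2a4 call was lost (adjusted p = 0.116).

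Of 16 heat shock chaperone genes tested, which include the mitochondrial pair Hspd1 and Hspe1, 5 rose and 2 fell in RPF (median 0.41), and 2 rose and 0 fell in RNA (median -0.04). The shares of all genes that rose and fell were 5.31% and 6.78% in RPF and 2.42% and 2.73% in RNA. Hspa8, the constitutive HSP70, had RPF levels of 28.3, 57.3 and 33.1 CPM at ZT5 and 169.5, 138.3 and 121.6 CPM at ZT12 (1.88 ± 0.25, adjusted p = 0.000275) and changed by 1.21 ± 0.19 (adjusted p = 0.000166) in RNA over the CDS, but by -0.42 (adjusted p = 0.333) when RNA was counted over all transcript regions. Its cochaperone Dnaja1 changed by 1.63 ± 0.24 (adjusted p = 0.000327). Hspe1 fell (-1.79 ± 0.29, adjusted p = 0.00191). Cirbp, a protein induced by cold, had RPF levels of 22.5, 23.3 and 30.3 CPM at ZT5 and 12.8, 10.9 and 14.1 CPM at ZT12 and fell (-1.0 ± 0.18, adjusted p = 0.00195), while Rbm3 of the same kind did not pass. With first sequencing runs alone the Cirbp call was lost (adjusted p = 0.0694).

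Glucocorticoid-responsive genes had 3 rises and 0 falls of 10 in each of RNA (median 1.141) and RPF (median 1.76), and 5 rises in RPF without mouse 1 of ZT12. Rises made up 2.42% of all genes in RNA and 5.31% in RPF. Lpin1, a phosphatidate phosphatase and coactivator, had RNA levels of 40.3, 50.3 and 43.7 CPM at ZT5 and 124.1, 702 and 609 CPM at ZT12 (3.43 ± 0.58, adjusted p = 0.0125), not past the threshold without mouse 1 of ZT5 (adjusted p = 0.0618). Zbtb16, a zinc finger repressor, changed by 1.98 ± 0.42 (adjusted p = 0.0103) in RPF, and by 2.7 without mouse 2 of ZT5. Its call was lost with the knockout livers fitted alone (adjusted p = 0.0709). In the polyamine pathway Srm, spermidine synthase, rose in RNA (1.47 ± 0.23, adjusted p = 6.85e-05) and RPF (1.48 ± 0.29, adjusted p = 0.00527) and was the 1 of 8 tested to pass in either.

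**Figure D5:**
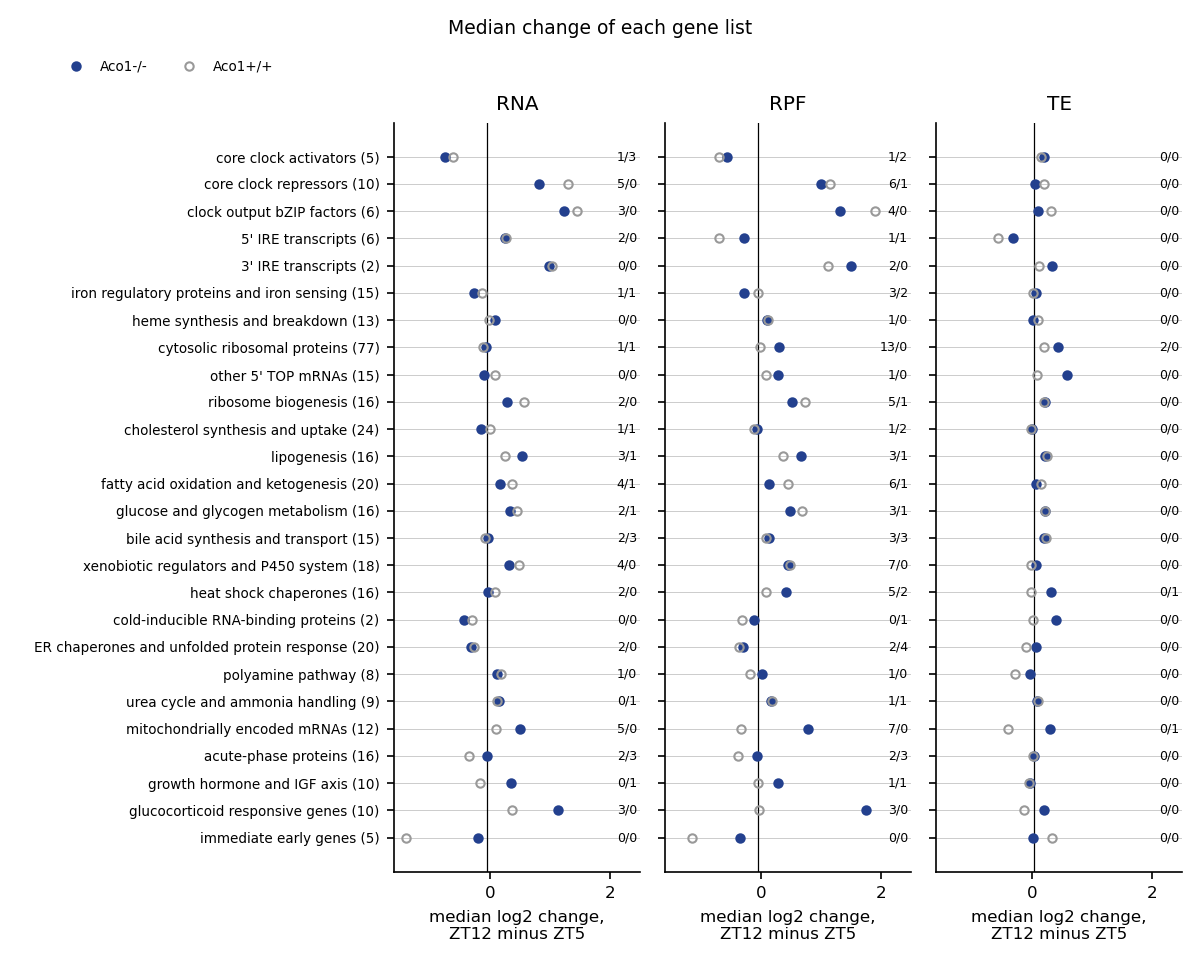
Median log2 change from ZT5 to ZT12 of 26 gene lists in RNA, RPF and TE, with filled points for Aco1-/- livers, open points for Aco1+/+ livers and a line at the median of all genes; the numbers at the right of each panel are members that rose and fell in Aco1-/- livers, and those after the names are members tested. Mitochondrially encoded mRNAs have a median of 0.79 in RPF in Aco1-/- and -0.33 in Aco1+/+ livers, and clock output factors stand above 1 in RNA and RPF in both.

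The changes over time were set beside those in Aco1+/+ livers, which are separate mice. There 352 genes (3.29%) rose and 402 (3.76%) fell in RNA, and 370 (3.46%) rose and 340 (3.18%) fell in RPF. In RNA 306 genes changed in both genotypes, which is 55.5% of the knockout calls and 40.6% of the wild-type calls, and each moved in the same direction. In RPF the shared genes were 462, or 35.7% and 65.1%, again each in the same direction. Of the 551 knockout RNA calls 96.4% had the same sign in Aco1+/+ livers, beside 66.3% of all genes tested, and of the 1293 RPF calls 95.6% did, beside 72.0%.

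The larger number of footprint calls in the knockouts did not come with differences that passed the test itself. With edgeR 0 genes differed in their time effect between genotypes in RNA and 0 in RPF, with 628 and 590 genes at an unadjusted p under 0.05. DESeq2 called 0 in RNA and 13 in RPF. The time change of Usp2 was 4.37 and 4.42 in RNA in Aco1-/- and Aco1+/+ livers, that of Per2 2.77 and 2.79, and that of Arntl -2.63 and -2.2. Hsd3b7, which changed by -1.92 in RPF in the knockouts and by -0.67 in the wild types, had an adjusted p of 0.327 for the difference.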

How the data were processed

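RPF and total RNA libraries of the 6 Aco1-/- livers and the 6 Aco1+/+ livers of the Aco1 line were used. Per the study's methods and the submitters' processing notes, the authors trimmed reads with cutadapt 3.5, removed rRNA and tRNA reads with Bowtie2, mapped with STAR 2.70f to Ensembl release 100 and deposited read counts per gene in 5 columns. The third column was taken as CDS counts, the only one used besides an alternative that summed all columns, and runs of a library were added. CDS counts per library set the precision and lay between 852293 and 10075277.

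Upper-quartile scaling was used, as in the study, with edgeR 4.0.16 (quasi-likelihood test, Benjamini-Hochberg adjustment over 10696 genes that passed its filter of low counts, threshold 0.05). RNA and RPF were fitted each over the 4 groups of 3 livers, ZT12 against ZT5, and TE in a fit of both with a term for each mouse. Single values were compared by exact permutation tests. limma 3.58.1, DESeq2 1.42.0, TMM scaling, other filters, first runs, left-out mice and replicate numbers as a block were alternatives. Nothing in the labels says that mice shared a litter or a day, and p-values measure the spread between these mice. The fits were also run on simulated counts, drawn without an effect of mouse, and the outcome is not reported here.

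Genes were named if among up to 12 in each direction with the smallest adjusted p and no overlap between times (predicted genes and near-identical families left out), as members of the clock and iron lists, or as up to 3 in each direction of each other list, 26 lists in all. A few others, such as mt-Nd1, mt-Cytb, mt-Atp8, Mup12 and Mup8, were named after their values were seen. Some genes that the rule selected are not reported here. The members and lists were chosen with earlier results of these data known. Promoter windows came from RefSeq.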

Additional observations from a re-analysis of the deposited data

Results flagged for a closer look

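A test of the difference in time effect between the genotypes singled out 3 TE values. For mt-Co1, the catalytic subunit of cytochrome oxidase, the log2 TE change from ZT5 to ZT12 was higher by 1.1 in Aco1-/- than in Aco1+/+ livers (edgeR, adjusted p = 0.00462). For mt-Nd5 of complex I the difference was 0.89 (adjusted p = 0.0179). The TE change of neither gene passed the test in Aco1-/- livers alone. For Mup12, a major urinary protein gene whose near-identical copies make its counts uncertain, it was -2.47 (adjusted p = 0.000384), with a change of -2.22 in Aco1-/- and 0.25 in Aco1+/+ livers. Groups of 3 livers were too small for a search for single outlying mice.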

How the results depend on the processing

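Time effects in Aco1-/- liver gave 551 RNA, 1293 RPF and 16 TE calls, and differences from Aco1+/+ 0, 0 and 3. RNA calls were 319 with first runs alone, and 296 to 606 with a mouse left out. TMM gave 323 rises and 249 falls in RNA, against 259 and 292, and DESeq2 266 and 206. In RPF the 568 rises and 725 falls became 675 and 647 with DESeq2 and 627 and 653 with TMM. RPF calls were 661 with first runs, 836 with only the mice compared, 748 with counts thinned to the RNA depth, and 531 to 1600 with a mouse left out. TE calls were 6 with first runs, 28 without a filter, 4 with only the mice compared, about 1.1e+02 with RNA over all columns (40 rises and 68 falls), 0 with unpaired libraries or limma, and 3 to 74 with a mouse left out. RPF differences numbered 13 with DESeq2, 2 with first runs or no filter, 1 with TMM, and 0 to 10 with a mouse left out, and RNA differences 0 to 3. TE differences numbered 5 with first runs, 0 with unpaired libraries or limma, 2 with all columns (neither among the 3), and 1 to 15 with a mouse left out. The replicate block gave 535 RNA, 1454 RPF and 21 TE calls, and 4 RPF and 5 TE differences. The deviations of same-numbered mice had r from -0.04 to 0.02 in RNA and from -0.08 to -0.01 in RPF. These values cannot decide whether such mice shared a litter or a day. Hspa8 RNA changed by -0.42 with all columns, the 1 reversal among the changes of single genes recomputed, and the cause was not tested. List medians under TMM moved by less than the spread between mice. RNA was the shallower library of 5 of the 6 Aco1-/- mice, which limits TE.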

Other observations

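The lists below stand beside 2.42% of all genes rising and 2.73% falling in RNA, and 5.31% and 6.78% in RPF. Among 16 acute-phase genes 2 rose and 3 fell in each of RNA (median log2 -0.06) and RPF (median -0.07). The 3 that fell were the fibrinogen chains Fga, Fgb and Fgg, with RNA changes of -0.78, -0.75 and -0.84. Steap4, a metalloreductase, changed by 1.09 ± 0.20 (adjusted p = 0.000854) in RNA and Saa4, a constitutive serum amyloid, by 0.86 ± 0.17 (adjusted p = 0.00403) in RPF. Of 20 genes of ER chaperones and the unfolded protein response 2 rose and 0 fell in RNA (median -0.31), and 2 rose and 4 fell in RPF (median -0.31). Herpud1 had RNA levels of 115.6, 201 and 213 CPM at ZT5 and 522, 333 and 629 CPM at ZT12 (1.48 ± 0.23, adjusted p = 0.000924), and Calr, the lectin chaperone calreticulin, had RPF levels of 2246, 2340.2 and 1564 CPM at ZT5 and 1148, 847 and 949.9 CPM at ZT12 (-1.06 ± 0.17, adjusted p = 0.000608). Without mouse 1 of ZT5, 1 ER gene rose and 1 fell in RPF.

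In the urea cycle list 1 of 9 fell in RNA (median 0.15), beside 2.73% of all genes. In RPF 1 rose and 1 fell (median 0.16), beside 5.31% and 6.78% of all genes. Asl, argininosuccinate lyase, had RPF levels of 829, 915 and 949 CPM at ZT5 and 1169, 1583 and 1397 CPM at ZT12 (0.62 ± 0.14, adjusted p = 0.0078). Growth hormone and IGF genes gave 1 fall of 10 in RNA (median 0.35) and 1 rise and 1 fall in RPF (median 0.27). Of 5 immediate early genes tested edgeR called 0 in RNA (median -0.20) and 0 in RPF (median -0.35). Polyamine genes had medians of 0.11 in RNA and 0.02 in RPF, and the 2 cold-inducible genes -0.44 and -0.12.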
